A study of Mus musculus with 3 samples.

Results

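The IL-1 cytokine genes, their receptors and Il6 were followed across 6 mouse RNA samples: Il1rn, Il1a, Il1b, Il1r1, Il1r2, Il1rl1, Il1rap, Il18, Il33 and Il6. These 10 of 27729 genes on the array were taken by gene name, with all of their 19 probes out of 41174. Il1rn was selected on measured values: an earlier look at the same data had placed its treated over untreated ratio at the top of the named genes in T cells after 24 h of treatment. Its value in that comparison is therefore a description and supports nothing.

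The samples were 3 pairs of cultures without and with phospho-ascorbate (pAsc), a stable form of vitamin C, at 800 µM. The first pair was OP9-DL1, a continuously grown line of marrow stroma made to carry Dll1, a ligand of Notch, and labelled as osteoblast of strain B6-C3Hf1, and it received pAsc for 24 h. The second was T lineage cells raised from marrow progenitors of strain C57BL/6 on OP9-DL1 with Flt3L and IL7, harvested at day 14 with pAsc in the last 24 h. The third was the same kind of culture at day 17 with pAsc in the last 72 h. The untreated cultures are labelled as grown in MEM, and stroma was reduced in the T cell samples by a brief adherence before harvest. Each pair was hybridised to 1 two-colour array, with Cy3 for the untreated and Cy5 for the treated RNA. With 1 array per comparison and dyes in 1 orientation no p-value can be given, and a dye effect of a probe cannot be told apart from treatment. Time in pAsc and day of culture differ together between the T cell arrays.

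IL-1 alpha and IL-1 beta signal through IL1R1 with its partner IL1RAP, which recruit MYD88 and the IRAK kinases and turn on NF-kB target genes such as Il6. The product of Il1rn occupies IL1R1 without starting a signal, and IL1R2 is a decoy that binds ligand and cannot signal. IL-18 and IL-33 are relatives of IL-1, and IL1RL1 is the receptor of IL-33. Bone marrow stroma is a known source of IL-6 and a known responder to IL-1.

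Results turn on a few probes, which are shown here 5′ to 3′ as deposited, all in lower case because no base is singled out. Each probe has 60 bases, and the first 30 are given except for the second Il1rn probe, which is whole because it spans an intron inside the coding part of the message. Positions are those of the array's design on mm9. The brighter Il1rn probe lies at chr2:24206125-24206184 on the + strand and the second at chr2:24203035-24204055, the intron included. For Il1rl1 a probe designed on the shorter transcript lies at chr1:40504769-40504828 and a probe designed on the longer one at chr1:40521952-40522011, both on the + strand. The Il6 probe lies at chr5:30346362-30346421 on the + strand.
Il1rn, brighter probe: tttcttgaccattcattttatcacttctaa
Il1rn, second probe: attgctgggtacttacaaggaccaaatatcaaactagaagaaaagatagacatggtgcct
Il1rl1, shorter transcript: ctctgtaacaggatcttttgtctagatttc
Il1rl1, longer transcript: tgaccttatttgcttaccagttacaggtaa
Il6: atattctgttacctagccagatggtttctt

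A gene is described by its brightest probe unless another is named. To count as measured on an array it needed a share of 0.5 or more of its spots well above background, in the treated channel and in the untreated one. Genes past 2-fold were singled out by size alone. There were 14346 such genes for stroma, 16971 for T cells at 24 h and 16282 for T cells at 72 h. The log2 SD was 0.069, 0.071 and 0.068 between repeat spots of a probe, in that order, and 0.178, 0.143 and 0.178 between probes of a gene. These spreads are technical and hold no variation between cultures. Of 29 stromal and matrix markers, all were above background in untreated stroma, where 4 of 22 T lineage markers were. Of 8 osteoblast genes 7 were above background in untreated stroma and Ibsp, the bone sialoprotein gene, was not. In untreated T cells all 21 T lineage markers with a usable spot were above background at day 14, and all 22 at day 17. For Thy1, without a value at day 14, the spot of the brightest probe was flagged as an outlier, and its other probe was above background in both channels. The stromal markers were also present there, 26 of 29 at day 14 (not Dcn, Dll1 and Lum) and 27 of 28 at day 17 (not Dcn), where the only Serpinh1 spot was flagged and gave no value. In these bulk samples fewer cells of a type and less RNA per cell cannot be told apart.

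Levels across the samples came first. A level is the log2 intensity of 1 channel scaled across the arrays, and it is compared only within a probe. Il1rn was at 13.67 in untreated and 13.57 in treated stroma, 8.95 and 10.52 in untreated and treated T cells at day 14, and 12.24 and 12.59 at day 17. Stroma was highest and untreated day 14 T cells were lowest. The 2 stromal values differed by less than the probe SD, and every other step in the order by more. Untreated stroma was 26.3-fold above untreated T cells at day 14 and 2.68-fold above those at day 17. Untreated T cells at day 17 were 9.82-fold above those at day 14.

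**Figure D1:**
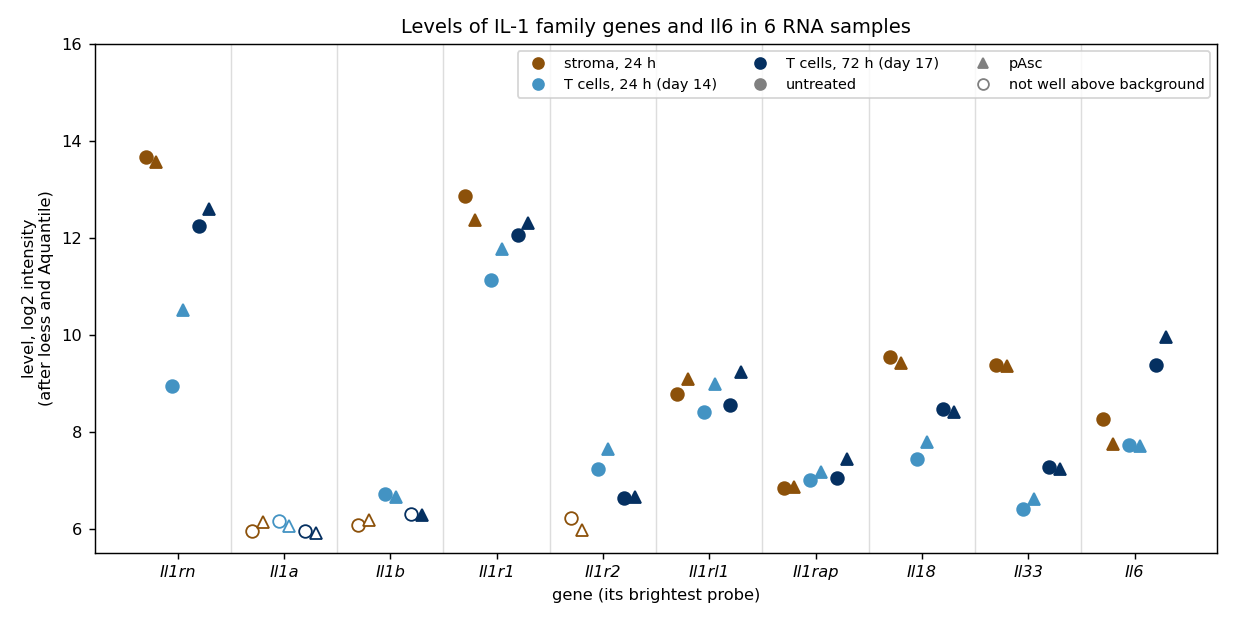
Level of each gene in its brightest probe, as log2 intensity after loess and Aquantile scaling (vertical axis), in the 6 RNA samples (colour for the array, circle for untreated, triangle for pAsc, open where not well above background). Il1rn spans from 8.95 in untreated day 14 T cells to 13.67 in untreated stroma, while Il1a is open in all 6 samples.

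Il1r1, the signalling receptor, kept the same order of cultures over a smaller range. It was at 12.87 in untreated and 12.37 in treated stroma, 11.13 and 11.76 at day 14, and 12.06 and 12.32 at day 17. Treated stroma and treated day 17 T cells, neighbours in that order, were within the probe SD of each other.

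Il33, an alarmin of stromal and epithelial cells, was at 9.38 and 9.35 in stroma, 6.41 and 6.61 in T cells at day 14 and 7.26 and 7.22 at day 17. Its stromal and day 17 pairs each lay within the probe SD. Il18, an interferon-gamma inducing cytokine, was at 9.53 and 9.41 in stroma, 7.44 and 7.79 at day 14 and 8.46 and 8.40 at day 17. For both genes all T cell samples were below both stromal samples.

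Il6 had another order. It was at 8.26 in untreated and 7.74 in treated stroma, 7.72 and 7.70 in T cells at day 14, and 9.38 and 9.95 at day 17. Both day 17 samples were thus above every other sample, and treated stroma and both day 14 samples were within the probe SD of each other. Untreated T cells were 3.15-fold higher at day 17 than at day 14.

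The ligands Il1a and Il1b were dim. Both Il1a probes were not well above background in all 6 samples. Il1b was not well above background in stroma and was at 6.72 and 6.66 in T cells at day 14, at least 1.43-fold above stroma in the untreated pair. At day 17 shares of 0.2 of its untreated and 0.5 of its treated spots were above background, so the treated sample reached the rule for a measured channel and the untreated one did not.

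The decoy receptor Il1r2 was also seen in T cells and not in stroma. It was not well above background in either stromal sample, at 7.24 and 7.65 at day 14 and at 6.64 and 6.66 at day 17. Untreated day 14 T cells were at least 2.04-fold above untreated stroma. The second Il1r2 probe gave at least 1.22-fold there, and at day 17 it was above background only in treated cells. Il1rap, the shared co-receptor, moved least of the genes above background in all samples, from 6.84 in untreated stroma to 7.44 in treated day 17 T cells. It was dim there, as the lowest levels above background ran from 5.99 to 6.20, and the offset narrows differences between dim levels. Untreated stroma minus untreated day 14 T cells was -0.17 for Il1rap, or -1.05 with the scanner software's processed signals. Of its 5 probes, 3 were below background in every sample.

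The probes of Il1rl1 gave different pictures. The gene is known to give a membrane receptor from a longer message and a secreted form from a shorter one. The probe of the shorter transcript was at 8.78 and 9.08 in stroma, 8.40 and 8.98 at day 14 and 8.55 and 9.23 at day 17. That of the longer transcript was at 7.73 and 7.85 in stroma, 8.11 and 7.83 at day 14 and 9.73 and 10.21 at day 17. Untreated T cells at day 17 were 3.06-fold above those at day 14 in the longer transcript's probe and 1.11-fold in the shorter's. Whether the longer message also holds the bases of the first probe was not tested, and another Il1rl1 probe, of a stretch further upstream, was above background only in treated day 17 cells.

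**Figure D2:**
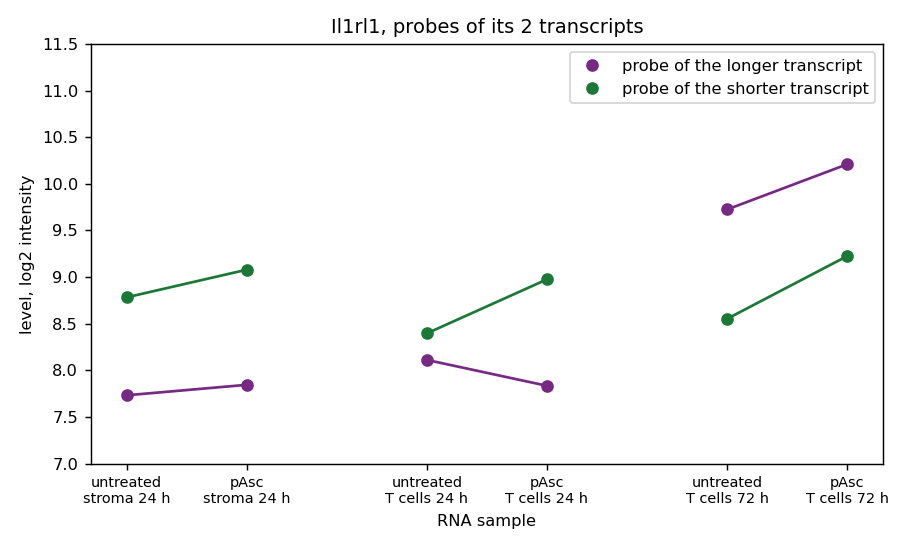
Log2 level (vertical axis) of the Il1rl1 probes of the shorter (green) and longer (purple) transcript in the 6 RNA samples (horizontal axis), with lines joining the channels of an array. The longer transcript's probe has its highest levels at day 17, at 9.73 and 10.21, while the shorter's stays between 8.40 and 9.23 in all 6 samples. Heights are compared within a probe, not between the probes.

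In counts, 7 members could be compared between untreated stroma and untreated day 14 T cells, and 4 were at least 2-fold higher in stroma (Il1r1, Il1rn, Il18 and Il33), where 40.3% of all measured genes were 2-fold apart in either direction and 24.7% higher in stroma. Against day 17 T cells 3 of 7 were higher in stroma (Il1rn, Il18 and Il33) and Il6 was lower, beside 26.2% of all genes in either direction and 16.2% higher in stroma. Between untreated T cells of day 17 and day 14, 3 of 8 were at least 2-fold higher at day 17 (Il1rn, Il18 and Il6) beside 11.3% of all genes in either direction and 7.68% higher. The stromal markers moved with these differences. Their median level was 20.3% of that in untreated stroma in untreated T cells at day 14 and 55.3% at day 17, and 31.0% and 70.1% in the treated samples. On the same scale Il1rn was at 3.80% and 37.3% in the untreated samples and at 11.3% and 47.2% in the treated ones, below the marker median each time. Il1r1 was at 29.8% and 57.2% untreated and at 46.4% and 68.0% treated. Il6 was at 68.6% at day 14 and, at 216%, above the stromal level at day 17. How far stromal RNA accounts for the members' levels in T cell samples was not tested.

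**Figure D3:**
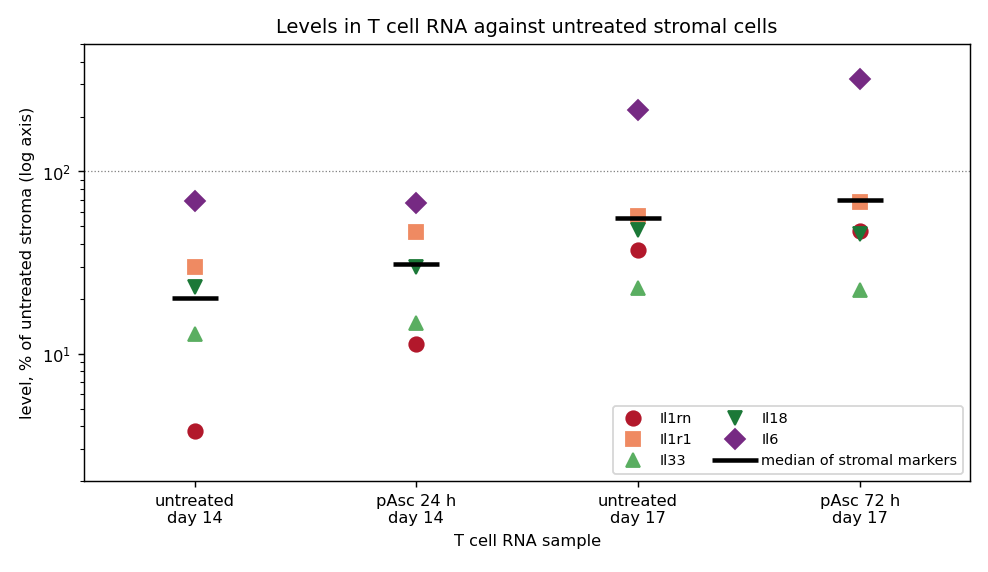
Level in each T cell sample as a percent of that in untreated stroma (vertical log axis) for 5 genes and the median of the stromal markers (black bars, 29 at day 14 and 28 at day 17). Il1rn lies below the marker median in all 4 samples, and Il6 lies above 100% at day 17, at 216% and 322%.

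After 24 h of pAsc in T cells Il1rn was the member with the largest difference. It was 2.96-fold higher in treated cells, a log2 ratio of 1.57, which placed it at rank 2 of 16971 measured genes. The scanner software's own log ratio gave 1.66. Its second probe was above background only in the treated channel, where the treated signal was at least 1.45-fold higher after normexp and loess. The scanner software gave that probe a log2 ratio of 1.70. Centring on all and on measured probes gave it 0.44 and 0.08. Il1r1 had a log2 ratio of 0.64, the Il1rl1 probe of the shorter transcript 0.58 and Il1r2 0.41, with 0.12 in the second Il1r2 probe. The longer transcript's probe of Il1rl1 was at -0.28, the opposite sign to the shorter's, or at 0.02 with the array centred on the median of all probes. Il18 was at 0.35, with an SD of 0.12 over its 10 spots, and Il33 at 0.20. Il1rap stood at 0.16, Il1b at -0.07 and Il6 at -0.02. Centring on measured probes turned Il33 to -0.32, Il1rap to -0.11 and the second Il1r2 probe to -0.38, and plain subtraction put Il33 at 0.58. In all 9 of 10 members were measured, and 1 was past 2-fold, in a comparison where 0.324% of all genes were, 0.312% in the higher direction. Since that comparison chose Il1rn, nothing is read from the count. The members had a median of 0.35 against 0.02 for all measured genes.

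Stromal markers were higher on the same array. All 26 measured ones had a log2 ratio above 0, from 0.18 to 1.27 (Fbn1, a fibrillin), with a median of 0.69. The ratio of Il1rn was reached by 0 of 26. Selecting Il1rn as the top named gene of this array fixed that count, so nothing is read from it. Of those 26 markers, 14 were at or above Il1r1, 20 at or above Il18 and 24 at or above Il33. Their part in the members' ratios was not tested.

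After 72 h of pAsc in T cells Il1rn had a log2 ratio of 0.34 and its second probe 0.53. The highest members were Il1rl1, at 0.67 in the shorter and 0.48 in the longer transcript's probe, and Il6, at 0.57 with an SD of 0.06 over its 10 spots. Il1rap followed at 0.39 and Il1r1 at 0.25. Il1r2 was at 0.03, Il33 at -0.04 and Il18 at -0.06, each within the probe SD of 0. Their signs depended on the scaling, with Il1r2 at -0.52 when centred on measured probes, and Il33 at 0.16 and Il18 at 0.42 when centred on all probes. Of 8 measured members 0 were past 2-fold, beside 0.608% of all genes. The members' median was 0.30 against 0.01 for all genes. That of 27 stromal markers was 0.52, and 19 of them were at or above Il1rn, 12 at or above Il6 and 11 at or above Il1rl1. Their part was not tested here either.

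In stroma alone, 24 h of pAsc gave lower values for Il6 and Il1r1 than in untreated cells. Il6 had a log2 ratio of -0.53 with an SD of 0.08 over the 9 spots used, and -0.88 by the scanner software. With the array centred on the median of all probes Il6 was at -0.21. Il1r1 was at -0.50, or 0.46 with the array centred on the median of all probes, a scaling that moves the median of all genes to 0.64. Il18 at -0.13, Il1rn at -0.10 and Il33 at -0.03 were within the probe SD of 0, and that scaling turned their signs as well. Centring on measured probes put Il1rn at 0.41 and Il1r1 at -0.09. Il1rl1 was at 0.30 in the shorter and 0.11 in the longer transcript's probe, and Il1rap at 0.03. Centring on measured probes turned the longer transcript's probe to -0.18 and Il1rap to -0.52. By the scanner software Il1rap was at -0.25. Of 7 measured members 0 were past 2-fold, beside 0.551% of all genes, and their median was -0.10 against 0.02.

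**Figure D4:**
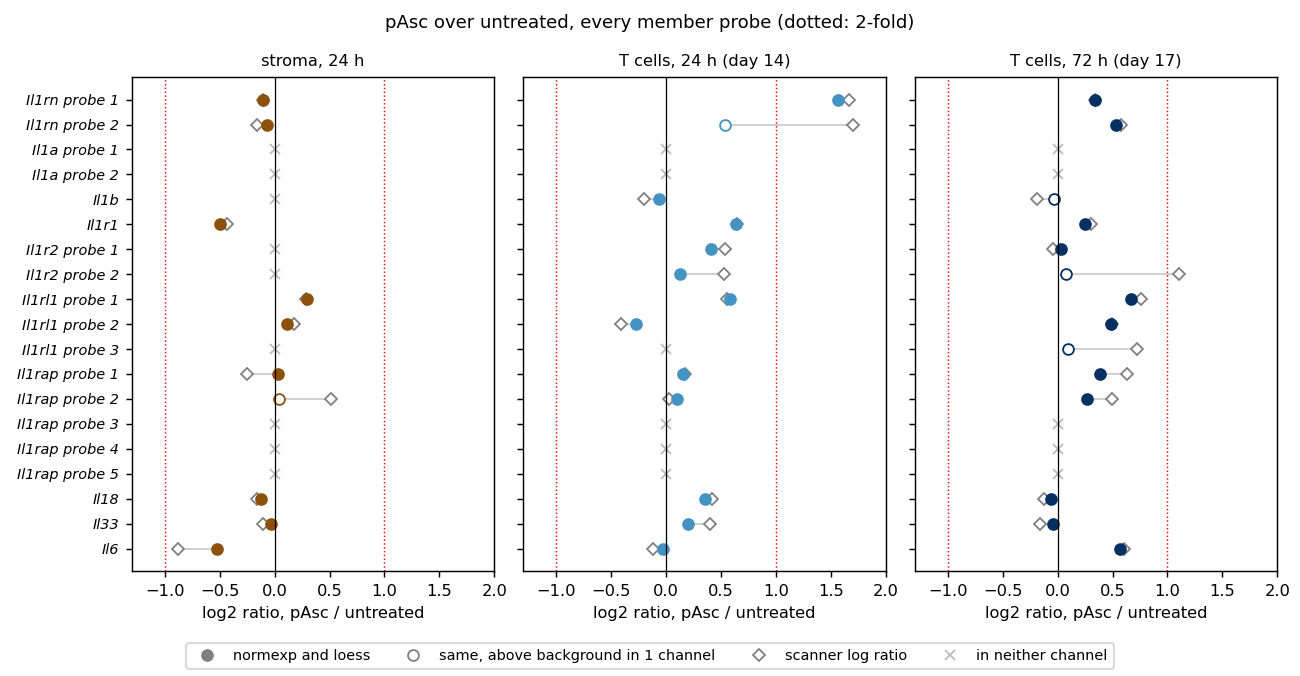
Log2 ratio of treated over untreated (horizontal axis) for every probe of the 10 genes on the 3 arrays, by normexp and loess (filled, or open where above background in 1 channel) and by the scanner software (diamond). Dotted lines mark 2-fold, and the brighter Il1rn probe in T cells at 24 h, at 1.57, is the only filled point beyond them.

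The arrays were then set against each other, which cancels a dye effect that is constant for a probe. In its brighter probe Il1rn had a log2 ratio lower by 1.23 in T cells at 72 h than at 24 h. It was the 1 member of 8 past a difference of 1, beside 0.553% of all genes in either direction and 0.362% in that one. Il6 lay the other way, with a ratio higher by 0.60, and so did the longer transcript's probe of Il1rl1, higher by 0.76. Between cultures at 24 h the 7 measured members each had a lower ratio in stroma than in T cells in the brightest probe, as did 53.9% of all genes. The longer transcript's probe of Il1rl1 was higher in stroma by 0.39, and Il33 turned from -0.23 to 0.52 and 0.34 with centring on all and on measured probes. The members past 1 were 2, Il1rn at -1.67 and Il1r1 at -1.14, beside 1.75% of all genes in either direction and 1.38% in that one. With the same centrings Il1r1 was at -0.70 and -0.89 and no longer past 1, and Il1rn was at -1.05 and -1.23. The value of Il1rn between 72 h and 24 h was -0.90 and -1.02 with them. The second Il1rn probe, above background at 24 h only in the treated channel, gave -0.005 for 72 h minus 24 h. With the same centrings that probe gave 0.54 and 0.42, and by the scanner software -1.13. For stroma minus T cells at 24 h it gave -0.61, or 0.06 and -0.13 with the centrings. All of these differences use the 24 h T cell array that put Il1rn among the members.

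Genes around the pathway were described from 5 lists. Past 2-fold were 0.551%, 0.324% and 0.608% of all measured genes in stroma and in T cells at 24 h and 72 h. Of 12 other IL-1 family genes, 3, 6 and 6 were measured in stroma and in T cells at 24 h and 72 h, and 0 were past 2-fold. The IL-18 receptor chains were among them. Il18r1, the ligand-binding chain, was not above background in stroma and had log2 ratios of -0.52 at 24 h and 0.44 at 72 h in T cells. Il18rap, its partner, was at -0.58 and -0.41. In stroma Il18bp, a soluble inhibitor of IL-18, was at 0.51, or 1.04 by the scanner software. Il1rl2, the receptor of the IL-36 cytokines, was at 0.55 in T cells at 72 h, and Il1f8, one of those cytokines, at 0.50 at 24 h.

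Of 19 signalling genes below the receptor, 18, 19 and 19 were measured and 0 were past 2-fold. Irak3, a kinase-like brake on IRAK signalling, had the largest difference, at -0.93 in T cells at 72 h, with -0.38 in its other measured probe and -1.28 by the scanner software. Chuk, an NF-kB kinase, was at -0.61 in stroma. The list medians of 0.12, -0.03 and 0.05 lay near those of all genes.

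Of 14 inflammasome and processing genes on the array, 6, 9 and 9 were measured, and 1 was past 2-fold. That was Ctsg, a granule protease able to cut IL-1 family proteins, at -2.07 in T cells at 72 h. Casp1, which matures IL-1 beta and IL-18, was at -0.46 there, Casp4 at -0.48 and the adaptor Pycard at -0.43. Gsdmd, whose cleaved product forms membrane pores, was at 0.79 in stroma. Of 13 neutrophil and granule markers 4 were measured on that array. Beside Ctsg these were Mmp9 at -0.51, Mpo at 0.07 and Prtn3 at 0.03, and S100a8 and Elane were not above background. The summed log2 level of the list was 10.3 in untreated and 9.93 in treated cells with Ctsg and 9.87 and 9.80 without it. Of 6 measured mast cell and basophil markers Cpa3, a mast cell protease, was past 2-fold at -2.13. Above 0 were 2 of the 6, Gata2 at 0.65 and Kit at 0.51, and the list median was -0.03. Of 15 measured monocyte and macrophage markers Lyz2, a lysozyme, was past 2-fold at -1.27. Above 0 were 6 of the 15, with Adgre1 highest at 0.87, and the list median was -0.08. The part of these cell types in the value of Ctsg was not tested.

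Of 30 NF-kB factors and genes known to be induced by IL-1, 22, 25 and 24 were measured and 0 were past 2-fold. Ptgs2, the inducible cyclooxygenase, was at 0.79 at 24 h and 0.65 at 72 h in T cells, or 1.19 and 1.43 by the scanner software. Tnfaip3, an inhibitor of NF-kB, was at -0.89 and the chemokine Cxcl1 at -0.71 at 72 h. At 24 h Tnf was at -0.59 and the adhesion gene Icam1 at -0.49. Vcam1, another adhesion gene, was at 0.55 there, with -0.05 in its other measured probe. Of the 25 genes measured at 24 h, 12 were above 0 and 13 below. In stroma Cxcl1 was at -0.53. The list medians were 0.01, -0.03 and -0.04.

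Of 21 genes of the IL-6 family and its signalling on the array, 19, 21 and 21 were measured and 0 were past 2-fold. Osm, which encodes the IL-6 relative oncostatin M, was not above background in stroma and went from -0.73 in T cells at 24 h to 0.81 at 72 h. Cebpb and Cebpd, transcription factors of the acute phase, were at 0.71 and 0.64 at 24 h and at 0.58 and 0.57 at 72 h. The receptor subunit Il6st was at 0.19 and -0.003 and the ligand-binding Il6ra at 0.18 and -0.12. The kinases Jak2 in stroma and Tyk2 in T cells at 72 h were at -0.54 and -0.64.

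The genes whose levels ran most like those of Il1rn over the 6 samples were named by Euclidean distance between centred log2 levels, among 13595 genes above background in all of them. They were Palmd at 0.43, Ednra at 0.46, Foxc1 at 0.55, Maob at 0.56 and Rspo2 at 0.61, where the median gene was at 3.94. Each was highest in untreated stroma and lowest in untreated T cells at day 14. Their log2 ratios at 24 h in T cells ran from 0.96 for Foxc1 to 1.28 for Palmd. The 24 h array and the stromal level that chose them are the same values, so these are descriptions.

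Promoters are shown for Il1rn, with the largest difference at 24 h in its brighter probe, and for Il6, with the reverse course over time. The 250 bases before the start sites were taken from RefSeq on GRCm38.p6, where all 10 genes have an entry, with 15 start sites in all. Capitals mark matches on either strand to the kappaB consensus, the AP-1 motif TGANTCA and the C/EBP motif TTGNGCAA. Il1rn's first start site, at chr2:24336610-24336859 on the + strand, holds an AP-1 match that begins at -141. Its start sites 2 and 3, not printed, hold no match to any of these motifs. Which start site was used in these cells was not tested. The Il6 promoter, at chr5:30012864-30013113 on the + strand, holds AP-1 at -249, C/EBP at -128 and kappaB at -44, none of which overlap.
Il1rn: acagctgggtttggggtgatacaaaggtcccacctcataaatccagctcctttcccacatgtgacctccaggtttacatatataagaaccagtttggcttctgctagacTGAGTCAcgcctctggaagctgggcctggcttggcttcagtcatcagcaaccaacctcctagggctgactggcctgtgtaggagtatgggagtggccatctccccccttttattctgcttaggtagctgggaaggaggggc
Il6: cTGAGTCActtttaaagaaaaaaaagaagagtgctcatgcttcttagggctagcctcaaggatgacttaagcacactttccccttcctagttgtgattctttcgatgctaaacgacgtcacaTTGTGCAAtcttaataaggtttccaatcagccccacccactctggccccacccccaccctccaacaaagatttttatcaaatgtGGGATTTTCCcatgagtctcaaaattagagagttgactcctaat
Among the 15 start sites 2 held kappaB, 3 AP-1 and 1 C/EBP, against 7.25%, 6.75% and 2.61% of 32851 promoters. A match in letters is not a shown binding site.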

How the data were processed

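Per the file headers, the deposited intensity of each spot comes from Agilent Feature Extraction 10.5.1.1 as an unnormalized mean signal and a local background for each channel. The deposited log10 ratio of Cy5 over Cy3 was used as an alternative, turned to log2. Backgrounds were corrected by normexp with an offset of 50 and arrays normalized by loess with a span of 0.3 in limma 3.58.1 (R 4.3.3), with control and outlier-flagged spots at weight 0. Spots of a probe were averaged and channels compared across arrays after Aquantile. An offset of 50 shrinks the ratios of dim probes.

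For a probe above background in 1 channel or group, "at least" compares its bright level with the higher of its own dim level and the lowest level above background there. These bounds are open to dye bias and to the choice of scaling, and another scaling can give a smaller value. Probes were named through RefSeq accessions where possible. All members were named, with up to 4 genes of largest ratio per list and array, and the 5 genes nearest Il1rn. The text gives the informative ones of these, with Il6st and Il6ra added after their values were seen. The osteoblast list was also added later. Members and lists were chosen with earlier results of these data known. All arrays lie on 1 slide with 1 scan. Background correction and loess within an array were tested on simulated data, for bright probes only. The scaling across arrays, the rule for a measured gene and the bounds were not tested in that way.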

Additional observations from a re-analysis of the deposited data

Results flagged for a closer look

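After 24 h of pAsc 2 genes had log2 ratios of opposite sign in stroma and T cells that also differed by at least 1. Of all genes measured on both arrays 1.75% differed by at least 1 in either direction, whatever their signs. For Il1rn the ratio was -0.10 in stroma and 1.57 in T cells in the brighter probe, a difference of -1.67. Its second probe, above background in T cells at 24 h only in the treated channel, gave a difference of -0.61. With centring on all and on measured probes that probe gave 0.06 and -0.13. For Il1r1 the ratio was -0.50 in stroma and 0.64 in T cells, a difference of -1.14. Il18, at -0.13 and 0.35, and Il33, at -0.03 and 0.20, had opposite signs with smaller differences. With 1 array for each culture none of these differences was tested. The 24 h T cell value of Il1rn is the one that put it among the members, so its difference is a description. With centring on all and on measured probes the difference of Il1r1 was -0.70 and -0.89, no longer past 1. The stromal value of Il1rn lies within the SD between probes of a gene, and with median centring on all probes both stromal values were above 0.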

How the results depend on the processing

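No paired analysis was possible because each group has 1 array, and leaving out an array leaves no value. Counts of members past 2-fold were within 1.5 times of those given, with the following exceptions. Median centring on all probes gave 2 in T cells at 24 h (Il1r1 and Il1rn), 4 at 72 h (Il1r1, Il1rn, Il1rl1 and Il6), 0 for 72 h minus 24 h and 1 for stroma minus T cells. That scaling moves the median of all genes to 0.64, 0.41 and 0.54. Centring on measured probes also gave 1 for stroma minus T cells, Il1rn in both cases. Between untreated day 17 and day 14 cells the count in either direction was 5 with an offset of 0 and with processed signals. It added Il33, higher at day 17, and Il1r2, lower at day 17 by a log2 difference of -1.05 and -1.76. Over all 5 pathway lists 0, 0 and 1 genes were past 2-fold on the stromal, 24 h and 72 h arrays. The counts were 1, 2 and 3 with the scanner log ratio, 1, 1 and 3 with plain subtraction and 17, 6 and 11 when all probes were median centred. With an offset of 0 they were 1 at 24 h and 3 at 72 h, and with centring on measured probes 1 in stroma and 2 at 72 h. The cause was not tested. Among all 14346 genes in stroma 62 were higher and 17 lower, 136 and 110 with the scanner log ratio, and 155 and 88 with plain subtraction. Centring on all probes gave 2835 and 2 there, and centring on measured probes 303 and 18. Among all 16282 at 72 h the counts in the same order were 37 and 62, 116 and 166, 117 and 132, 1558 and 12, and 143 and 81. An offset of 0 gave 85 and 104 at 72 h, and plain subtraction gave 160 and 30 at 24 h. Among all genes in T cells at 24 h, 53 were higher and 2 lower, 147 and 32 with the scanner log ratio, 113 and 7 with an offset of 0, and 748 and 2 after centring on the median of all probes. Of 155 recomputed member ratios 98 moved by less than the technical spread, and the ratio of Il1rn's brighter probe at 24 h stayed between 1.57 and 2.01. Dim probes limit Il1a, Il1b, Il1r2 and 3 of 5 Il1rap probes.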

Other observations

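Some dim probes gave ratios that differed widely between processing choices. The second Il1r2 probe in T cells at 72 h, above background in the treated channel alone, was 1.05-fold higher in treated cells after normexp and loess and 2.15-fold higher by the scanner software. For the upstream Il1rl1 probe, in the same state, the folds were 1.07 and 1.65.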
